A study of Sus scrofa with 8 samples.

Results

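The members described here were the 7 microRNA (miRNA) targets, among the 686 of a custom porcine array, whose names are those of miR-31, miR-361 or miR-378. They were taken by name from the non-control spots, and the names were chosen with earlier results of these data known. They comprised ssc-miR-31, mmu-miR-31-3p, ssc-miR-361-5p, ssc-miR-361-3p, ssc-miR-378, ssc-miR-378b-3p and hsa-miR-378a-5p, which together held 15 of 1683 probes and 140 of 13720 spots per array. The prefixes ssc, mmu and hsa mark entries designed on the pig, mouse and human sequences. Luteal tissue of crossbred gilts, 6 to 8 months old and from a single commercial herd, was taken post mortem on day 14 of pregnancy after insemination at the second estrus (pregnant, 4 arrays) or on day 14 of the estrous cycle without insemination (cyclic, 4 arrays). Each array carried the total RNA of 1 individually processed sample, and the labels call the samples biological replicates.

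The corpus luteum is the progesterone gland that forms from the ovulated follicle. In the pig it begins to regress late in the cycle unless signals from conceptuses maintain it. A miRNA is cut from a hairpin precursor into a 5p and a 3p arm, and the arm loaded into the silencing complex lowers the stability and translation of mRNAs that match its seed. miR-31 is known in human cancer cells as a repressor of genes for cell invasion. miR-361-5p represses the angiogenic factor VEGFA in human cells, and vessel growth and loss accompany the building and the regression of the gland. miR-378 lowers aromatase in porcine granulosa cells and was studied in the bovine corpus luteum, and in mice it acts on mitochondrial metabolism.

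In the porcine assembly Sscrofa11.1, RefSeq annotates 5 precursor genes for these names. MIR31 lies in no annotated gene, between MTAP and the interferon gene IFNE. MIR361 lies within CHM, the gene of a Rab escort protein. MIR378-1 lies within PPARGC1B, which encodes a coactivator of mitochondrial genes, MIR378-2 within BCAS3, and MIR378B within RGS3. An array probe for mature miR-378 cannot tell its precursors MIR378-1 and MIR378-2 apart.

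Values are background-subtracted spot intensities averaged over a probe and divided by the array's 75th percentile over targets detected on all arrays, so that 1 stands for that percentile, which was 189 to 316 intensity units. The array of cyclic replicate 1 stood apart from the other cyclic arrays. Over the tested targets, 163 of them porcine entries and 49 of other species, its log2 values correlated on average at 0.984 with the 4 pregnant arrays and at 0.960 with the other 3 cyclic arrays, whereas cyclic replicates 2, 3 and 4 correlated at 0.949 to 0.964 with the pregnant arrays and at 0.972 to 0.978 with the remaining cyclic arrays. The difference of each detected member is therefore given with and without it. The array was singled out by its likeness to the pregnant arrays over these same targets. Leaving it out therefore itself favours larger differences between the groups. The arrays came on 3 slides, of which slide 3 carried replicates 3 and 4 from either group. Slide 1 held pregnant replicates 1 and 2 and had a scan day of its own, and slide 2 held cyclic replicates 1 and 2. For the label of the tissue, no miRNA that defines luteal cells was fixed as a check, and 0 of 6 array entries for the muscle miRNAs miR-1, miR-133 and miR-206 and 0 of 2 for the liver miRNA miR-122 were detected on any array.

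Of the 7 members, 4 were above background on all 8 arrays and 3 on none, with the same counts from the scanner software's own detection flag. The detected ones were ssc-miR-31, mmu-miR-31-3p, ssc-miR-361-5p and ssc-miR-378. These 4 entered the test, and 0 passed it in either direction, against a background of 24 of all tested targets, or 11.3% (5.19% higher and 6.13% lower in pregnancy; limma, Benjamini-Hochberg adjusted p under 0.05). At an unadjusted p under 0.05 the call held for 1 of the 4, ssc-miR-31, against 34.4% of the tested targets. The pregnant and cyclic arrays of each of the 4 overlapped, so that 0 of 4 members had separate groups, where 17% of the tested targets did (9.91% with pregnancy higher, 7.08% with pregnancy lower). The median difference of the 4 was 0.33 on the log2 scale, beside 0.0038 over all tested targets. In whole tissue, fewer cells that hold a miRNA and less of it per cell cannot be told apart.

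Among the members the smallest p belonged to ssc-miR-31, the porcine entry of the guide arm. Its scaled signal was 0.851, 0.824, 0.887 and 0.897 on pregnant replicates 1 to 4. On cyclic replicates 1 to 4 it was 0.852, 0.633, 0.638 and 0.606. The pregnant arrays lay close together, as did cyclic replicates 2, 3 and 4 at a lower level, while cyclic replicate 1 lay within the pregnant range, so that the groups overlapped through that single array. The mean log2 signal was −0.21 ± 0.056 in pregnancy and −0.57 ± 0.22 in the cycle (SD, n = 4 each). The difference of 0.35 ± 0.13 (SE) corresponds to 1.28-fold, with a 95% interval from 1.04-fold to 1.57-fold, and did not pass (limma, unadjusted p = 0.0224, adjusted p = 0.104). Between spots of this probe the coefficient of variation had a median of 4.81% over the arrays. Between samples, whose values are means over spots, it was 3.89% in pregnancy and 16.7% in the cycle, cyclic replicate 1 included.

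**Figure D1:**
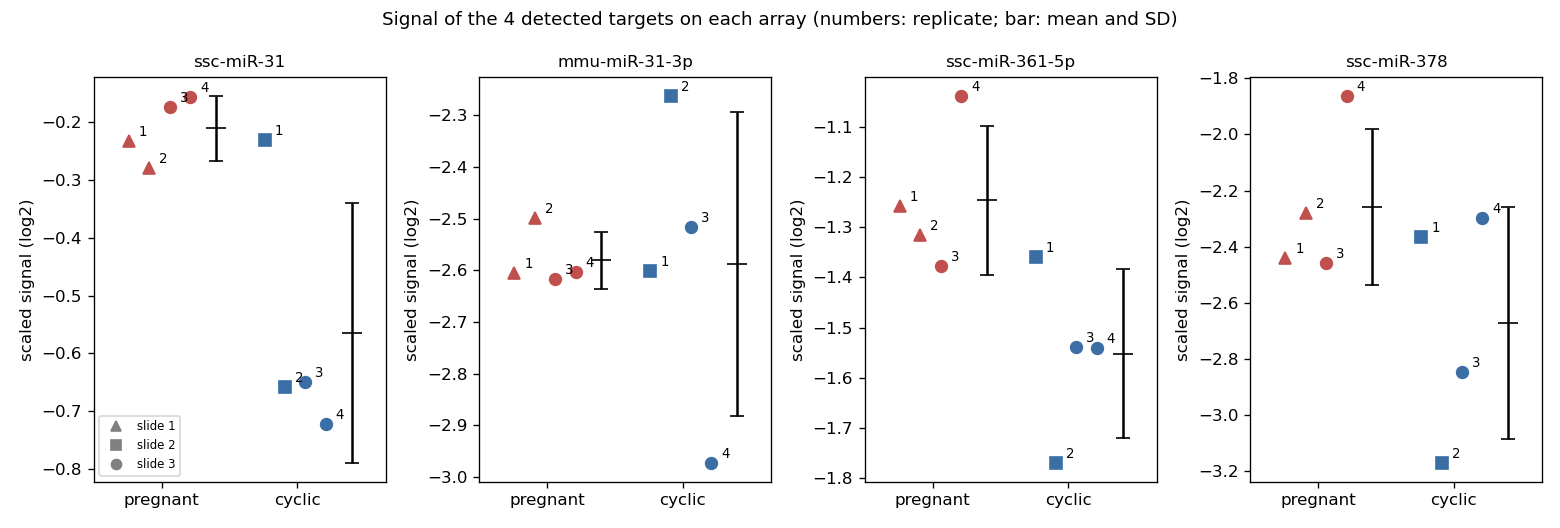
Scaled signal (log2, vertical axis) of the 4 detected targets on each of the 4 pregnant and 4 cyclic arrays. Points are arrays numbered by replicate, symbols mark the slide, and bars give the mean and SD. For ssc-miR-31, cyclic replicate 1 at −0.23 lies among the pregnant arrays, while cyclic replicates 2, 3 and 4 lie between −0.72 and −0.65.

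Without cyclic replicate 1 the difference of ssc-miR-31 was 0.47 ± 0.11 with all 4 pregnant arrays above the other 3 cyclic ones, and it passed (limma, adjusted p = 0.00770). That call has to be read against its background, since 38.2% of the tested targets passed in the same fit (19.3% higher in pregnancy) and 41% did not overlap between the groups (22.6% higher). The array left out was also chosen from these same data, so the call is no independent evidence of a difference. Leaving out any of the other 7 arrays gave 0.30 to 0.38 and adjusted p from 0.154 to 0.229. On slide 3, where both groups had 2 arrays, the difference was 0.52 ± 0.15 (limma, adjusted p = 0.0958, where 4.25% of the tested targets passed). With slide as a fixed block the same difference had an SE of 0.19 (adjusted p = 0.114), and with slide as a random block it was 0.34 (adjusted p = 0.115).

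In the sums of 2 of the 5 marker lists, those of leukocytes and fibroblasts, cyclic replicate 1 lay below the pregnant arrays and the other cyclic arrays above them. Only 1 of 8 leukocyte entries (lower) and 0 of 5 fibroblast entries passed the test, beside 11.3% of all tested targets (6.13% lower). The summed scaled signal of the 8 tested leukocyte entries was 1.01 to 1.23 on the pregnant arrays, 2.11 to 5.23 on cyclic replicates 2, 3 and 4, and 0.929 on cyclic replicate 1. Another 8 of the 16 leukocyte entries on the array were not above background on any array. For the 5 tested fibroblast entries the sum was 3.85 to 4.31 on the pregnant arrays, 4.62 to 8.49 on cyclic replicates 2, 3 and 4, and 3.57 on cyclic replicate 1. The sums of the 4 endothelial entries (7.55 to 9.44 in pregnancy, 6.76 to 7.95 in the cycle) and of the 4 smooth muscle entries (1.28 to 1.70 in pregnancy, 1.25 to 1.87 in the cycle) overlapped between the groups. So did those of the 2 erythroid entries (1.26 to 6.19 in pregnancy, 1.28 to 7.22 in the cycle). The sums add unlogged signal, so the brightest entries weigh most, as ssc-miR-126-3p (mean signal 6.92) and ssc-miR-451 (3.61) do in theirs. Single leukocyte entries differed by −2.29 for hsa-miR-223-3p, the brightest, up to 0.043 for hsa-miR-146b-5p. Single fibroblast entries differed by −0.53 for ssc-miR-199a-3p up to 0.11 for ssc-miR-214. A sum is thus no measure of every entry on its list. The part of these cell types in the ssc-miR-31 values was not tested.

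The other arm of the same hairpin, measured with the mouse-sequence entry mmu-miR-31-3p, showed another arrangement of the arrays. Its scaled signal was 0.164, 0.177, 0.163 and 0.165 on pregnant replicates 1 to 4. It was 0.165, 0.208, 0.175 and 0.127 on cyclic replicates 1 to 4. The pregnant arrays were tightly grouped inside the range of the cyclic arrays, whose lowest and highest values were replicates 4 and 2. The log2 difference of 0.0068 ± 0.17 had a 95% interval from −0.37 to 0.38 and did not pass (limma, adjusted p = 0.978). Without cyclic replicate 1 it was 0.0026, and on slide 3 it was 0.13 ± 0.26. The match of the mouse sequence to the porcine arm was not examined.

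Within each array, the log2 ratio of ssc-miR-31 over mmu-miR-31-3p is free of the scaling between arrays, although its size depends on both probes and is of use only between arrays. It was 2.37, 2.22, 2.44 and 2.45 on pregnant replicates 1 to 4 and 2.37, 1.60, 1.87 and 2.25 on cyclic replicates 1 to 4. Cyclic replicates 1 and 4 lay within the pregnant range and cyclic replicates 2 and 3 below it. The ratio averaged 2.37 ± 0.11 in pregnancy and 2.02 ± 0.35 in the cycle (SD, n = 4 each). This comparison was chosen after seeing the data, and its difference of 0.35 did not pass a two-sided exact permutation test over the arrays (p = 0.114, where 0.0286 is the smallest p this design allows). Without cyclic replicate 1 the difference was 0.46 (exact permutation p = 0.0571).

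**Figure D2:**
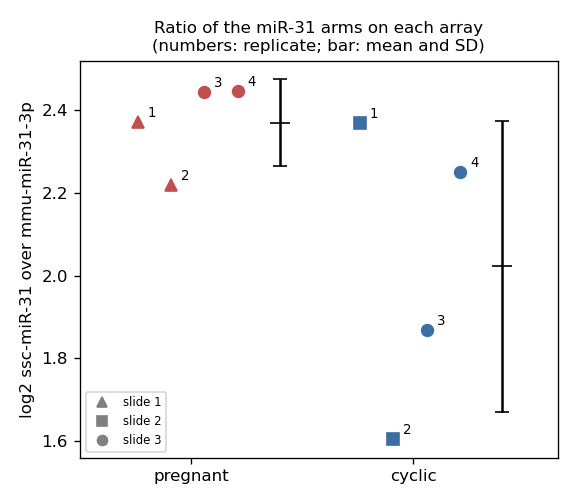
Log2 ratio of ssc-miR-31 over mmu-miR-31-3p (vertical axis) on the 4 pregnant and 4 cyclic arrays, numbered by replicate, with symbols for the slide and bars for the mean and SD. The pregnant arrays lie between 2.22 and 2.45, and the cyclic arrays spread from 1.60 to 2.37.

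For miR-361 the 5p arm was measurable. The scaled signal of ssc-miR-361-5p was 0.418, 0.402, 0.385 and 0.487 on pregnant replicates 1 to 4. On cyclic replicates 1 to 4 it was 0.390, 0.293, 0.344 and 0.344. The groups overlapped only in that cyclic replicate 1 lay just above pregnant replicate 3, and pregnant replicate 4 was the highest of the 8 arrays. The mean log2 signal was −1.25 ± 0.15 in pregnancy and −1.55 ± 0.17 in the cycle (SD, n = 4 each), and the difference of 0.31 ± 0.14 (SE), or 1.24-fold with a 95% interval from 0.998-fold to 1.53-fold, did not pass (limma, adjusted p = 0.145). Without cyclic replicate 1 all pregnant arrays lay above the other cyclic ones, as did those of 22.6% of the tested targets. The difference of 0.37 ± 0.14 did not pass (limma, adjusted p = 0.0570). On slide 3 it was 0.33 ± 0.20 (adjusted p = 0.348).

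The 3p arm, ssc-miR-361-3p, was not above background on any array, with 0 of 156 usable spots flagged as well above it. Its brighter probe averaged 0.275 to 1.74 intensity units on the pregnant arrays and 0.458 to 1.51 on the cyclic arrays. These values lie in the range of the negative control spots, whose 95th percentile was 3.41 to 5.11 on the pregnant arrays and 3.62 to 4.72 on the cyclic arrays. No difference between the groups can be read at this signal.

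For miR-378 the entry without an arm suffix, ssc-miR-378, was the detected one. Its scaled signal was 0.184, 0.206, 0.182 and 0.275 on pregnant replicates 1 to 4. It was 0.194, 0.111, 0.139 and 0.203 on cyclic replicates 1 to 4. The groups overlapped: cyclic replicates 1 and 4 lay among pregnant replicates 1, 2 and 3, while cyclic replicates 2 and 3 lay below and pregnant replicate 4 above every other array. The mean log2 signal was −2.26 ± 0.28 in pregnancy and −2.67 ± 0.41 in the cycle (SD, n = 4 each). With 0.41 ± 0.22 (SE), or 1.33-fold with a 95% interval from 0.945-fold to 1.87-fold, it had the largest difference and the widest spread of the 4 tested members and did not pass (limma, adjusted p = 0.229). Between samples its coefficient of variation was 20.6% in pregnancy and 27.3% in the cycle, and between single spots of the probe its median was 7.81%. Without cyclic replicate 1 the difference was 0.51 ± 0.23 (adjusted p = 0.0949), without cyclic replicate 2 it was 0.24 (adjusted p = 0.503), and on slide 3 it was 0.41 ± 0.33 (adjusted p = 0.461).

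The 2 other entries of the miR-378 family gave no level above the detection limit. For ssc-miR-378b-3p, the entry of a precursor of its own, 1 of 152 usable spots was well above background, and its brighter probe averaged 3.27 to 4.51 intensity units on the pregnant arrays and 0.341 to 6.01 on the cyclic arrays. On cyclic replicates 1 and 4 and pregnant replicate 2 that probe averaged 4.05, 6.01 and 4.06. These means exceeded the 95th percentile of the array's negative control spots, at 3.62, 4.27 and 3.41. For hsa-miR-378a-5p, the human-sequence entry of the passenger arm, 0 of 157 spots were well above background, and its brighter probe averaged 1.57 to 3.11 on the pregnant arrays and −0.462 to 1.80 on the cyclic arrays. The dimmest probe that counted as detected gave 8.55 to 10.3 units on the pregnant arrays and 9.21 to 11.8 on the cyclic arrays, so that all probe means of these entries were under that limit.

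**Figure D3:**
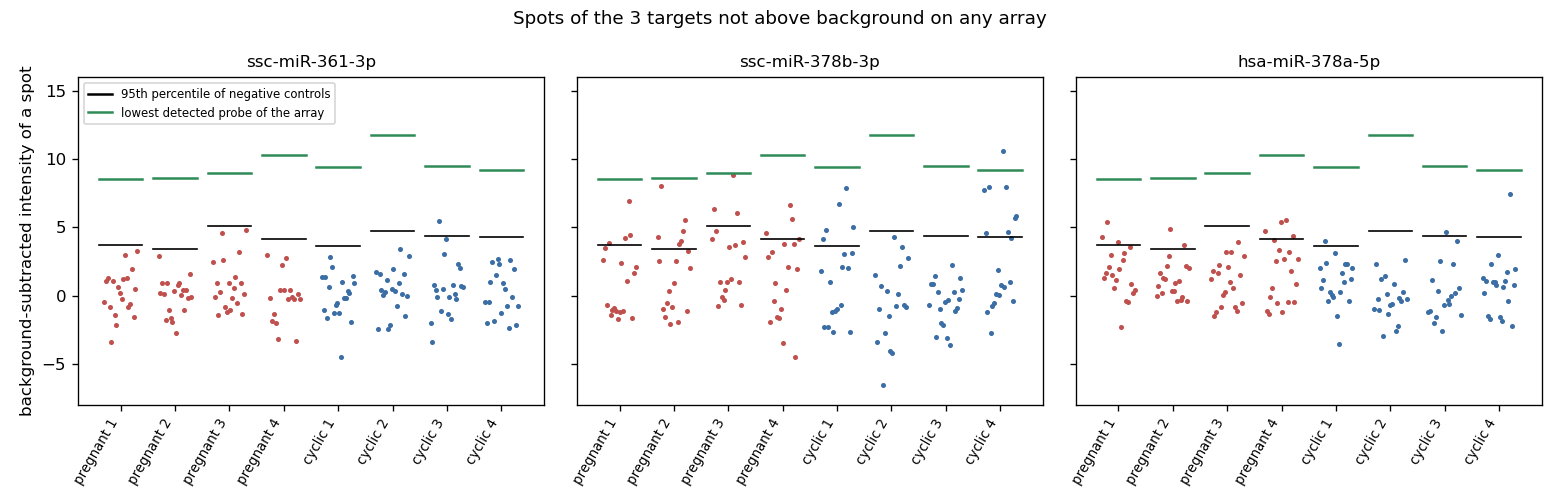
Background-subtracted intensity (vertical axis) of every usable spot of the 3 targets not above background, on each pregnant and cyclic array. Black lines give the 95th percentile of the negative control spots and green lines the lowest detected probe of the array (8.55 to 11.8). The spots of ssc-miR-361-3p reach at most 5.46, those of hsa-miR-378a-5p 7.41 and those of ssc-miR-378b-3p 10.6.

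Several probes of each detected member gave nearly the same difference. The second probe of ssc-miR-31 differed by 0.38, that of mmu-miR-31-3p by 0.0084 and that of ssc-miR-361-5p by 0.30, and the other 2 probes of ssc-miR-378 differed by 0.41 and 0.32. The intensity of the second ssc-miR-31 probe was 0.627 to 0.662 of that of the first on every array, and that of ssc-miR-361-5p was 0.806 to 0.863. All 158 usable spots of ssc-miR-31 and of mmu-miR-31-3p and all 159 of ssc-miR-361-5p were well above background, as were 157 of 160 of ssc-miR-378. No spot of any member was saturated (0 spots). The number of arrays, not the spots, thus limits the precision.

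**Figure D4:**
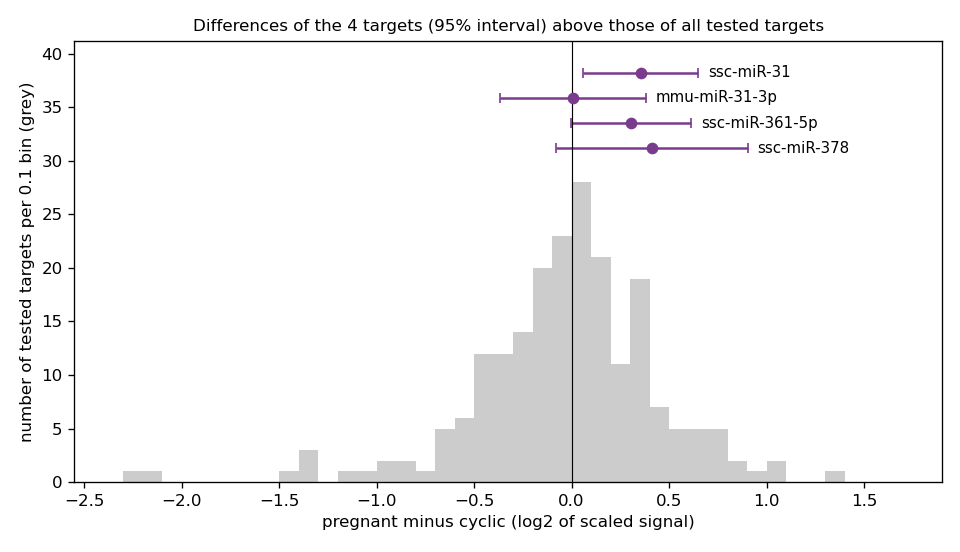
Pregnant minus cyclic difference (log2, horizontal axis) of the 4 detected members with its 95% interval, above a histogram of the differences of all tested targets in bins of 0.1. The interval of ssc-miR-31 (0.061 to 0.65) lies above 0, and those of mmu-miR-31-3p, ssc-miR-361-5p (−0.0029 to 0.61) and ssc-miR-378 (−0.082 to 0.90) include 0.

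Among the tested targets, 44 had a smaller p than ssc-miR-31, 75 a smaller p than ssc-miR-361-5p, 86 a smaller p than ssc-miR-378 and 209 a smaller p than mmu-miR-31-3p. By the size of the difference, 76 targets exceeded ssc-miR-31, 88 exceeded ssc-miR-361-5p and 60 exceeded ssc-miR-378. The members thus stood inside the bulk of the array's differences.

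The authors' deposited table, whose log2 values are centred per spot over the 8 arrays, was examined as well. The centring does not bring the mean to 0: ssc-miR-31 averaged 0.084 in pregnancy and −0.34 in the cycle. For ssc-miR-31 the authors' deposited table held 0.012, 0.071, 0.14 and 0.12 for pregnant replicates 1 to 4, and 0.0059, −0.44, −0.40 and −0.54 for cyclic replicates 1 to 4. There, too, cyclic replicate 1 lay next to the pregnant arrays, here just below all 4 of them (0.0059 against 0.012 for the nearest). On the scaled values it lay within their range. The share of tested targets with separate groups was not counted on the deposited values, so nothing is read from this order. Tested on these values, the difference was 0.43 for ssc-miR-31 (limma, adjusted p = 0.0958), 0.29 for ssc-miR-361-5p (0.171), 0.46 for ssc-miR-378 (0.194) and 0.074 for mmu-miR-31-3p (0.833), and 0 of the 4 passed, against 8.02% of the tested targets on that table.

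The targets of other miRNA numbers with the most similar pattern over the 8 arrays differed between the members. By Pearson's r of the log2 signal, given as a description of arrays that share slide and group, ssc-miR-31 was most like hsa-let-7b-5p (r = 0.966, Spearman's rho = 0.738), hsa-miR-129-1-3p (r = 0.953, rho = 0.857) and ssc-miR-423-5p (r = 0.950, rho = 0.786). Their differences of 0.74, 0.96 and 0.76 passed (limma, adjusted p from 0.0300 to 0.0333). Nothing is read from these, since the choice by correlation over the same arrays also selects for a shared difference between the groups. For ssc-miR-361-5p they were ssc-miR-7134-5p (r = 0.981, rho = 1), hsa-miR-125a-5p (r = 0.961, rho = 0.976) and ssc-miR-125a (r = 0.960, rho = 1), whose differences of 0.65, 0.39 and 0.39 did not pass. For ssc-miR-378 they were ssc-miR-181a (r = 0.936, rho = 0.810), ssc-miR-130b (r = 0.884, rho = 0.905) and hsa-miR-125a-5p (r = 0.863, rho = 0.762), with differences of 0.37, 0.29 and 0.39 that did not pass. For mmu-miR-31-3p they were hsa-miR-376c-3p (r = 0.898, rho = 0.786), hsa-miR-377-3p (r = 0.827, rho = 0.790) and bta-miR-1260b (r = 0.598, rho = 0.810), with differences of −0.050, −0.17 and −0.083. The sets of ssc-miR-31 and mmu-miR-31-3p, the 2 arms of 1 hairpin, had no target in common, while those of ssc-miR-361-5p and ssc-miR-378 shared hsa-miR-125a-5p. With only 3 targets per set out of 208 candidates, the lack of a shared target carries no information on the arms.

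A list of other miRNAs studied in luteal or granulosa cells was examined beside the members. Of the 37 array entries on that list 23 were tested, of which 1 was higher, ssc-miR-503 (1.39), and 3 were lower, mmu-miR-21a-3p (−2.18), ssc-miR-132 (−1.35) and hsa-miR-125a-3p (−1.16), while 19 did not pass. Over all tested targets 11.3% passed, 5.19% as higher and 6.13% as lower. The list's median difference was −0.028, beside 0.0038 over all tested targets. Of its brightest entries, ssc-miR-21 differed by −0.37, ssc-miR-126-3p by 0.16, ssc-miR-125b by −0.028 and ssc-miR-34a by 0.077, and these 4 did not pass (limma, adjusted p from 0.142 to 0.937).

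With normexp background correction, which here added an offset of 50 intensity units, the differences were smaller. That setting also started from each spot's median signal and median background in place of the processed signal, and used no floor. They were 0.16 for ssc-miR-378, 0.20 for ssc-miR-361-5p and 0.26 for ssc-miR-31, and did not pass (limma, adjusted p = 0.691, 0.453 and 0.293). Such an offset by itself shrinks log2 differences of dim probes, such as that of ssc-miR-378 (26.9 to 64.2 units). The part of the offset and of the other source of values was not tested. Over all alternative settings, normexp and each array left out among them, ssc-miR-31, ssc-miR-361-5p and ssc-miR-378 kept a positive difference in 25 of 25 each. For mmu-miR-31-3p it was positive in 19 of 24. These counts are no independent checks. All settings reuse the same arrays, and several, such as other detection filters, a lower floor or the replicate block, cannot change the members' estimates. With each array scaled to the 75th percentile over all probes, the 3 porcine members passed, at 0.65, 0.61 and 0.71 (limma, adjusted p = 0.0176, 0.0184 and 0.0421). That scaling raised the median difference of all tested targets by 0.30, and 29.2% of them passed (25.9% higher). Relative to that shift the differences were 0.35, 0.30 and 0.41, and 0 of the 3 passed (limma, adjusted p = 0.204, 0.261 and 0.291), against 12.3% of the tested targets. This setting was not planned beforehand. For members above the floor, subtracting the shift returns nearly the main differences by arithmetic, so their likeness is no separate check.

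**Figure D5:**
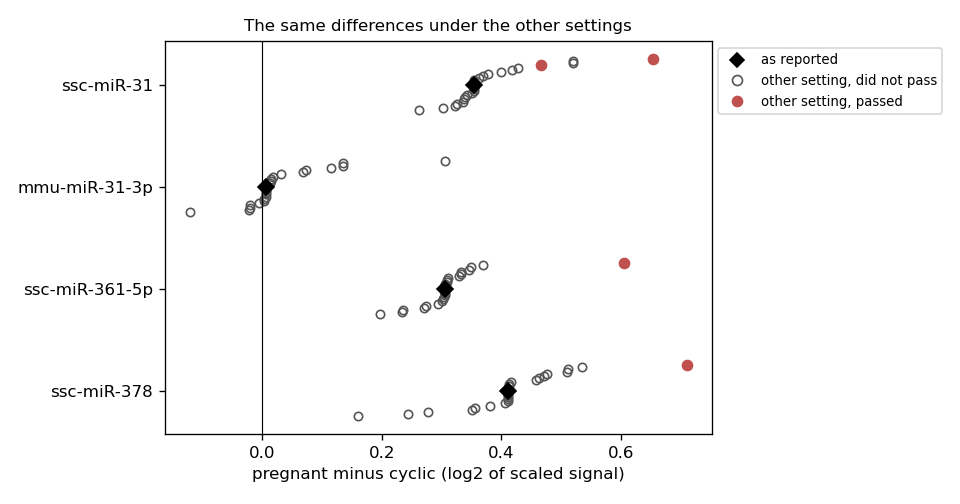
Pregnant minus cyclic difference (log2, horizontal axis) of the 4 detected members as reported (diamonds) and under the other settings (circles, filled where the adjusted p was under 0.05). ssc-miR-31 runs from 0.26 to 0.65 with 2 settings that passed, ssc-miR-361-5p from 0.20 to 0.61 and ssc-miR-378 from 0.16 to 0.71 with 1 each, and mmu-miR-31-3p from −0.12 to 0.31 with 0.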

How the data were processed

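The authors deposited 1 Agilent Feature Extraction file per 1-colour array, with intensity values background-subtracted and spatially detrended per the file headers (version 10.7.3.1 there, 10.7 per the submitters' processing notes), and a table of log2 values centred per spot, whose scaling between arrays is not given in the sources used here. In 2 of its columns, taken as a score for 3 deposited cells above 100, these cells were read as missing. Against scanner differences over 2806 spots the table ran in the same direction (slopes 0.843 to 0.983, r 0.878 to 0.974), and its column medians were −0.000302, 9.45e-05, −9.45e-05 and 0.0318 for pregnant replicates 1 to 4 and 0.0108, −0.000283, 0.000689 and −0.000205 for cyclic replicates 1 to 4. The labels give 100 ng of input per sample and RNA integrity numbers over 8.

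Here, control spots (715) and outlier spots (384 to 453 per array) were left out, spots averaged per probe, and the signal scaled to the 75th percentile of 166 targets detected on all arrays, floored at 0.0346 and log2-transformed. Detection of a probe required the well-above-background flag on a share of at least 0.5 of its spots, and detection of a target required any such probe. The brightest probe stood for its target. Targets detected on at least 4 arrays (163 porcine, 49 of other species) were tested with limma 3.58.1 (lmFit, eBayes with trend, two-sided, R 4.3.3) and Benjamini-Hochberg adjustment at 0.05, a step tested on simulated data. Named targets were all members, the 3 most correlated targets of each tested member, and of the luteal list those that passed and the 4 brightest. Entries of the marker lists were named after their values were seen, for their brightness or as ends of a range. The members, lists and rules were chosen with earlier results of these data known. Alternatives were other background correction, scaling, floors, filters, probe summaries, value sources, blocks and variance models and each array left out. Precision is limited by the number of arrays. Figures used Python 3.11.15 and matplotlib 3.10.9.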

Additional observations from a re-analysis of the deposited data

Results flagged for a closer look

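Within groups of 4 arrays, 2 values of the tested members lay farther from the rest than Dixon's critical ratio allows at the 95% level, out of 8 groups examined, where chance marks about 1 in 20. The first was ssc-miR-31 on cyclic replicate 1, at −0.23 on the log2 scale and above the other cyclic arrays, with a ratio of 0.851. The second was mmu-miR-31-3p on pregnant replicate 2, at −2.50 and above the other pregnant arrays, with a ratio of 0.879. The pregnant arrays span a narrow range, from −2.62 upward.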

How the results depend on the processing

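The labels state no pairing by replicate number. Deviations of same-numbered arrays from their group means correlated at 0.104, 0.098, −0.177 and 0.160 over the tested targets. For arrays of unlike number these correlations ran from −0.168 to 0.189. Such weak values cannot decide whether the numbers pair the arrays. With the replicate block 26 targets passed. The members' differences were unchanged, which the balanced design fixes in advance, with limma adjusted p of 0.135 for ssc-miR-31, 0.189 for ssc-miR-361-5p, 0.184 for ssc-miR-378 and 0.980 for mmu-miR-31-3p. The count of 24 passing targets became 11 with normexp background correction, 62 with the 75th percentile over all probes, 10 with the scanner's total gene signal, 11 when detection on 1 array sufficed, 9 on the slide that held both groups and 2 with scan day as a block. Leaving out 1 array gave 7 to 81 passing targets, the highest without cyclic replicate 1. With scaling over all probes, ssc-miR-31 (0.65), ssc-miR-361-5p (0.61) and ssc-miR-378 (0.71) passed. In that setting the median difference of all tested targets was 0.30, and 29.2% of them passed (25.9% higher). Leaving out 1 array gave 0.30 to 0.47 for ssc-miR-31, which passed without cyclic replicate 1 alone, 0.23 to 0.37 for ssc-miR-361-5p, 0.24 to 0.53 for ssc-miR-378 and −0.12 to 0.12 for mmu-miR-31-3p. The difference of mmu-miR-31-3p, which lies near 0, was negative with the total gene signal (−0.020), slide as a random block (−0.0047), scan day as a block (−0.022), without cyclic replicate 4 (−0.12) and without pregnant replicate 2 (−0.020), and it has no value among porcine targets alone. The arm ratio kept its sign in 14 of 14 settings (0.21 to 0.46). On slide 3 alone its exact permutation p of 0.333 is the smallest that 2 arrays per group allow, so that setting could not pass, and in the others p ran from 0.0571 to 0.257. The causes of these changes were not tested. With the signal near background, ssc-miR-361-3p, ssc-miR-378b-3p and hsa-miR-378a-5p allow no comparison.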
